A study of Mus musculus with 4 samples.

Results

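The genes of lysosomal hydrolases and lysosomal membrane proteins were followed in CD45+ cells of fat tissue from lean and obese mice. They are 40 genes picked by name for what their proteins do, and comprise 11 proteases, 10 glycosidases, 8 enzymes and activators of lipid breakdown, 5 sulfatases and phosphatases, and 6 membrane proteins. The 40 genes stand among 35869 listed genes, of which 16849 reached 1 TPM, a read count scaled to gene length and to the total of the sample, in at least 2 samples and were tested. Every one of the 40 passed that filter in all 4 samples, the lowest value being the 9.0 TPM of Idua in the first ND sample. The cells came from epididymal white adipose tissue (eWAT), the fat pad beside the epididymis, of WT male C57BL/6 mice that carried no engineered allele. From 8 weeks of age the mice ate a normal diet (ND) or a high-fat diet (HFD) for 12 weeks. The stromal vascular fraction of the pad, which is what remains once the fat cells are removed, was passed over microbeads that bind CD45, the common antigen on the surface of leukocytes. RNA-seq was run on 2 samples per diet, ND-1, ND-2, HFD-1 and HFD-2. The sources used here do not state whether a sample is 1 mouse or a pool, so p-values measure the spread between these samples, which may be technical.

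The lysosome is the acidic compartment in which cells take apart material they have swallowed or recycled. Its hydrolases are made in the endoplasmic reticulum, marked with mannose 6-phosphate in the Golgi and carried to the lysosome by receptors for that mark, and its membrane proteins keep the enzymes contained and let the breakdown products out. In obese fat, macrophages gather around dying fat cells and digest the lipid these release, a job that rests on lysosomal acid lipase. Many lysosomal genes carry in their promoters the CLEAR element, a short palindrome around CACGTG that the transcription factor TFEB binds.

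Promoter sequences were searched for CACGTG because many of these genes differed between the diets, and 4 are shown that differ in how many copies they hold. They are Ctsd and Gla, which were higher under HFD and whose promoters hold CACGTG, Lipa, which was higher and whose promoter holds no copy, and Lamp1, whose promoter holds the most copies of these 4 and which did not reach a 1.5-fold difference. Each is the 250 bases before the RefSeq transcription start on build GRCm38.p6 (mm10), 5′ to 3′ on the gene's own strand, in lower case with each CACGTG in capitals. Ctsd lies at chr7:142387828-142388077 on the minus strand, Gla at chrX:134601006-134601255 on the minus strand, Lipa at chr19:34527475-34527724 on the minus strand and Lamp1 at chr8:13158911-13159160 on the plus strand.
Ctsd: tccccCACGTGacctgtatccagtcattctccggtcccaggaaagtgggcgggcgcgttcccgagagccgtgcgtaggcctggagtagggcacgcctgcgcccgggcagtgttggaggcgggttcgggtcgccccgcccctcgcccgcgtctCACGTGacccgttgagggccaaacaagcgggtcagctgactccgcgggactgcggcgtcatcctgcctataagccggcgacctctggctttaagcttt
Gla: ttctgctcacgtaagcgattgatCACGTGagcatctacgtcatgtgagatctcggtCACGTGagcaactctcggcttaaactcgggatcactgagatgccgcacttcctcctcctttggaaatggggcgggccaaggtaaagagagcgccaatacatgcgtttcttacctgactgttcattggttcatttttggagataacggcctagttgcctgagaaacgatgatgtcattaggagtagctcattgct
Lipa: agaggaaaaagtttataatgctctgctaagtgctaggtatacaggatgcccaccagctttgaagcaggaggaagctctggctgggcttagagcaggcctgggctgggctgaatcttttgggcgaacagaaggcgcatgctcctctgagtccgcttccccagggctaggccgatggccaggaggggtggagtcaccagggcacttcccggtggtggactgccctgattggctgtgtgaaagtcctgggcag
Lamp1: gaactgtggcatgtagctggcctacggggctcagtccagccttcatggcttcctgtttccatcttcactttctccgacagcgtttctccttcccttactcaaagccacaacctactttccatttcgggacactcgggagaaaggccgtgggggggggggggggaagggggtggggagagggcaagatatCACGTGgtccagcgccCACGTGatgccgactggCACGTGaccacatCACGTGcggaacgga

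Lamp1 holds 4 copies, the nearest starting 15 bases before the transcription start and the farthest 61 bases before it. Ctsd and Gla hold 2 copies each, and the Ctsd copies start 98 and 245 bases before the start. Of the 36 members with a promoter in the RefSeq table, 12 (33.3%) hold CACGTG within a window of 250 bases before to 50 bases after the start, as do 8.09% of 27025 genes with such a window. The longer TCACGTG, which contains CACGTG, is found in 10 members (27.8%) and in 4.29% of all genes. The full TCACGTGA, which contains both, is found in 4 members (11.1%), Ctsa, Ctsd, Gla and Cln3, and in 1.12% of all genes. Both strands were searched. CACGTG stands in the promoter of 5 of the 15 members with a promoter that were called higher under HFD and of 7 of the other 21, the same share in both. A match of letters is not a bound site, and no binding was measured here.

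Several facts about the 4 samples bear on all values. TPM give each gene's part of a fixed total and are already divided by gene length, so levels can be compared between genes, and the depth of sequencing is not part of them. Ptprc, which encodes CD45, was at 53.7 to 59.4 TPM in all samples. Of 10 general macrophage markers 1, Adgre1, was called higher and 2, Mrc1 and C1qa, lower under HFD, with a summed level of 20865 to 21446 TPM under ND and 16627 to 17905 TPM under HFD. Of 8 markers of lipid-associated macrophages all 8 were called higher, with sums of 1131 to 1184 TPM under ND and 8680 to 9116 TPM under HFD, and of 6 markers of resident macrophages all 6 were called lower, with sums of 3451 to 3511 and 587 to 859 TPM. All 5 B cell, 5 T cell and 4 NK cell markers were called lower, as were 2 of 5 monocyte markers (Ly6c2 and Ccr2) and 2 of 5 dendritic cell markers (Zbtb46 and Cd209a). Fibroblast collagen and matrix genes summed to 522 to 561 TPM under ND, 2837 in HFD-1 and 5686 in HFD-2, with 4 of 6 called higher (Col1a1, Col1a2, Col3a1 and Lum), and 5 spermatid transcripts summed to 6460 TPM in HFD-1 against 1734 to 1995 in the other samples, their smallest adjusted p being 0.244. Of 5 adipocyte markers 1, Lep, was called higher and 1, Cfd, lower, and their sum was 14.0 to 46.3 TPM.

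The question put to the lysosomal genes was whether their transcripts differ between CD45+ cells of HFD-fed and ND-fed mice. They did for 19 of the 40. Under HFD 17 were higher, among them Ctsl, Lipa, Gusb, Ctsd, Galc and Cd63, and 2 were lower, the cysteine cathepsins Ctsc and Ctsh. A gene was called when limma on log2(TPM + 1) gave an adjusted p under 0.05 with a change of at least 1.5-fold, and that rule called 8.08% of all tested genes higher and 10.3% lower, 18.4% in all. The members stood at 17 of 40 on the higher side and 2 of 40 on the lower side. The same shares of all tested genes stand beside the counts of each class below and of each marker list above. In bulk RNA a larger share of a cell type and more transcript per cell of that type cannot be told apart.

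Of the 21 members not called, 9 had an adjusted p under 0.05 and a change of less than 1.5-fold, 7 of these toward higher values under HFD and 2 toward lower ones, and 12 had an adjusted p of 0.05 or more. With no limit on the fold, 24 members passed toward higher and 4 toward lower values, beside 13.2% and 14.1% of all tested genes. Both HFD values lay above both ND values in 33 members and below them in 6, beside 34.1% and 32.8% of all tested genes, and in Ppt1 the groups overlapped. The median log2 fold change of the 40 members was 0.42, that of all tested genes 0.06. The calls needed both ND samples. Without either ND-1 or ND-2 limma called no gene. The median log2 fold change of the members was 0.39 without ND-1 and 0.45 without ND-2. For a single gene, an exact permutation test over 2 against 2 samples cannot give a two-sided p below 0.333.

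Together the 40 transcripts made up 1.10% of all TPM in ND-1, 1.11% in ND-2, 2.09% in HFD-1 and 2.21% in HFD-2. The summed level was 1.94 times as high under HFD as under ND. Proteases carried most of it, with 0.669% of all TPM in each ND sample and 1.42% and 1.53% in the HFD samples. The sulfatases and the phosphatase were the smallest class and the one with the least change, 0.0276% and 0.0288% against 0.0305% and 0.0296%. Ctsd alone held 16.1% and 16.0% of the members' summed TPM under ND and 27.2% and 28.7% under HFD. Without Ctsd, the other 39 genes held 0.925% and 0.932% of all TPM under ND and 1.52% and 1.58% under HFD.

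**Figure D1:**
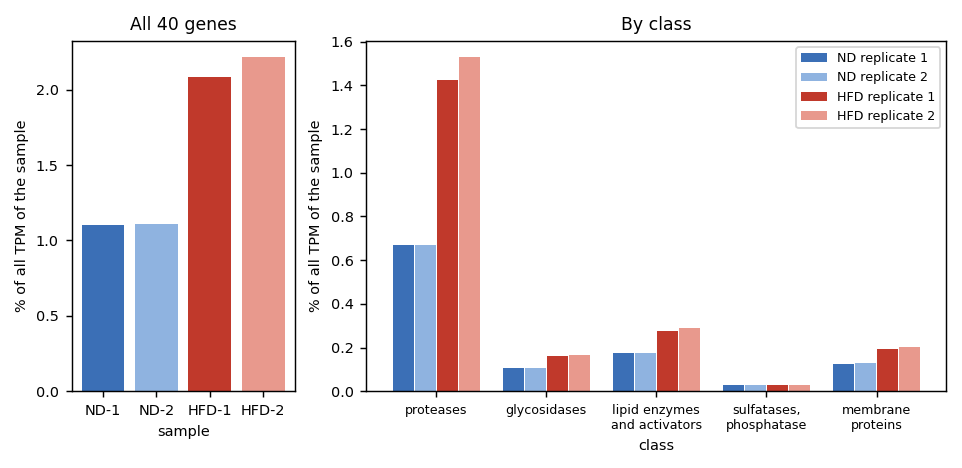
Share of all TPM held by the 40 lysosomal genes (left) and by each class (right), in percent, 1 bar per sample with no averaging. The HFD bars stand at 2.09% and 2.21% against 1.10% and 1.11% for ND, and the difference is widest in the proteases.

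Among the 11 proteases, 7 were higher under HFD, 2 were lower and 2 were not called, and the median log2 fold change was 0.82. Cathepsin L and cathepsin D stood out. Ctsl, a cysteine endopeptidase that cuts proteins deep in the lysosome, had 136.9 and 144.5 TPM under ND and 953.5 and 1069.6 TPM under HFD. That is 7.19 times the ND mean, with a log2 fold change of 2.84 ± 0.08 (SE) and an adjusted p of 0.00402 from limma. By level it went from the 21st of the 40 members in both ND samples to the 5th in both HFD samples.

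Ctsd, the main aspartic protease of the lysosome, was the most abundant member in every sample. It had 1772.2 and 1778.0 TPM under ND and 5664.6 and 6344.6 TPM under HFD, a log2 fold change of 1.76 ± 0.07 (SE, adjusted p = 0.00477). The HFD samples differed from one another by far less than they differed from ND. Ctsz, a carboxypeptidase, had 1014.4 and 1015.2 TPM under ND and 2062.6 and 2110.1 under HFD, a log2 fold change of 1.04 ± 0.03. Ctsb, a cysteine protease with both endopeptidase and dipeptidase activity, had 1292.1 and 1257.9 TPM under ND and 2434.5 and 2558.8 under HFD, a log2 fold change of 0.97 ± 0.04. Ctss, which trims the invariant chain of MHC class II molecules in antigen-presenting cells, had 650.3 and 656.9 TPM under ND and 1233.0 and 1245.2 under HFD, a log2 fold change of 0.92 ± 0.03. These 3 cathepsins thus changed by nearly the same amount, with adjusted p-values of 0.00415, 0.00507 and 0.00449, and in none did the groups come near each other.

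Tpp1, which removes tripeptides from the ends of proteins, had 149.4 and 158.3 TPM under ND and 272.4 and 273.3 under HFD, a log2 fold change of 0.82 ± 0.05 (adjusted p = 0.00633). Lgmn, the asparagine-specific endopeptidase that also cuts cathepsin precursors to their mature chains, had 305.3 and 306.7 TPM under ND and 461.5 and 493.9 under HFD, a log2 fold change of 0.64 ± 0.05 (adjusted p = 0.00924). Lgmn lay just past the 1.5-fold limit.

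The lower proteases were Ctsc and Ctsh, both cysteine proteases, as are Ctsl and Ctsb, which were higher. Ctsc, which activates the granule serine proteases of neutrophils and cytotoxic lymphocytes, had 363.4 and 380.5 TPM under ND and 171.1 and 151.9 TPM under HFD, and its log2 fold change was -1.20 ± 0.08 (SE, adjusted p = 0.00759). The 4 NK cell markers, summed, stood at 305 and 316 TPM under ND and 58.3 and 51.3 TPM under HFD. Of 7 neutrophil markers 6 were tested and 5 called lower (S100a8, S100a9, Retnlg, Csf3r and Cxcr2), with sums of 72.5 and 95.9 TPM against 29.4 and 32.8, and Ly6g, which defines mouse neutrophils, was listed at 0 in 3 of the 4 samples. All 6 resident macrophage, 5 B cell and 5 T cell markers were called lower too, as were some monocyte and dendritic cell markers. All 8 lipid-associated macrophage markers were called higher. The part of any of these cells in the Ctsc result was not tested. Ctsh, an aminopeptidase, had 383.9 and 393.9 TPM under ND and 246.8 and 254.3 TPM under HFD, a log2 fold change of -0.63 ± 0.04 (adjusted p = 0.00712).

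The remaining proteases were not called. Ctsa, the carboxypeptidase that shields beta-galactosidase and neuraminidase in a complex, had 526.4 to 553.1 TPM under ND and 668.4 to 685.8 TPM under HFD, a log2 fold change of 0.33 with an adjusted p of 0.0216. Ctsf, another cysteine protease, had the smallest difference of the class, with 70.9 and 72.4 TPM under ND, 77.6 and 84.6 TPM under HFD, a log2 fold change of 0.18 and an adjusted p of 0.135.

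The unequal changes altered the proportions of the cathepsins within each sample. The ratio of Ctsl to Ctss was 0.211 and 0.220 under ND and 0.773 and 0.859 under HFD. The ratio of Ctsl to Ctsh went from 0.357 and 0.367 to 3.86 and 4.21, so that the less abundant of the pair under ND was the more abundant under HFD. The ratio of Ctsd to Ctsb was 1.37 and 1.41 under ND and 2.33 and 2.48 under HFD. Ctsc and Ctsh, close to equal under ND with ratios of 0.947 and 0.966, stood at 0.693 and 0.597 under HFD.

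**Figure D2:**
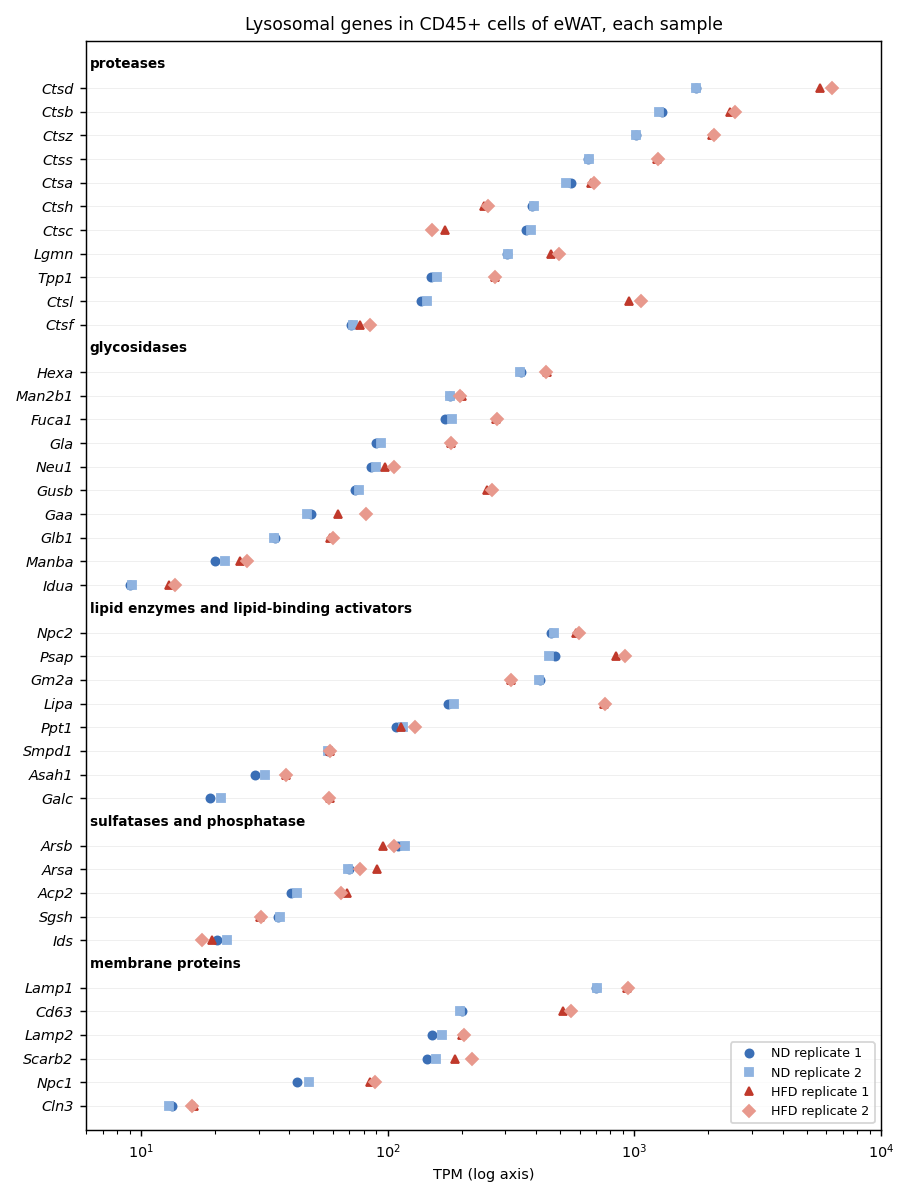
TPM of each of the 40 genes in each of the 4 samples on a log axis, by class and in order of the ND mean within a class. Ctsl moves from 136.9 and 144.5 TPM to 953.5 and 1069.6 TPM, Ctsc and Ctsh lie lower under HFD, and in Smpd1 and Ppt1 the symbols of both diets fall close together.

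Of the 10 glycosidases, which strip sugars from glycoproteins, glycolipids and glycosaminoglycans, 4 were called higher and none lower. Both HFD values lay above both ND values in all 10, beside 34.1% of all tested genes. The median log2 fold change was 0.54. Gusb, the beta-glucuronidase that cuts glucuronic acid from glycosaminoglycans, had 73.6 and 76.8 TPM under ND and 252.0 and 265.9 TPM under HFD, a log2 fold change of 1.77 ± 0.05 (SE, adjusted p = 0.00415). Its 3.44-fold ratio was close to that of Ctsd, 3.38, at a far lower level of transcript.

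Gla, the alpha-galactosidase that is deficient in Fabry disease, had 89.6 and 94.1 TPM under ND and 180.5 and 180.4 TPM under HFD, a log2 fold change of 0.97 ± 0.05 (adjusted p = 0.00536). Glb1, the beta-galactosidase whose activity is used as a stain for senescent cells, had 35.0 and 34.6 TPM under ND and 58.2 and 60.1 TPM under HFD, a log2 fold change of 0.75 ± 0.05 (adjusted p = 0.00759). Fuca1, the alpha-fucosidase, had 170.4 and 182.2 TPM under ND and 274.0 and 277.9 TPM under HFD, a log2 fold change of 0.64 ± 0.05 (adjusted p = 0.00954). In these 3 genes the HFD samples were within a few percent of each other.

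Hexa, the alpha subunit of beta-hexosaminidase and the most abundant glycosidase, missed the fold limit, with 346.2 and 345.0 TPM under ND, 441.8 and 438.2 TPM under HFD, a log2 fold change of 0.35 and an adjusted p of 0.0119. Idua, the iduronidase, was near the limit too, with a log2 fold change of 0.51 (adjusted p = 0.0247) at 9.0 to 13.8 TPM. Gaa, the acid glucosidase that degrades glycogen, had the widest gap between HFD samples of all 40 members, 62.9 and 81.5 TPM against 48.8 and 47.2 under ND, and its log2 fold change of 0.57 had an adjusted p of 0.0749. Without HFD-1 Gaa was called higher, with 0.75 and an adjusted p of 0.0361. Man2b1, an alpha-mannosidase, had the smallest difference of the class, with 179.3 and 178.9 TPM under ND, 199.9 and 196.5 TPM under HFD, a log2 fold change of 0.15 and an adjusted p of 0.0670. Manba and Neu1 had log2 fold changes of 0.31 and 0.21, with adjusted p-values of 0.0766 and 0.0941.

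Of the 8 enzymes and activators of lipid breakdown, 3 were called higher and none lower, and the median log2 fold change was 0.34. Lipa, the acid lipase that frees fatty acids and cholesterol from the triglycerides and cholesteryl esters a cell takes up, had 175.8 and 185.3 TPM under ND and 753.3 and 761.7 TPM under HFD. The ratio of the means was 4.20, with a log2 fold change of 2.06 ± 0.04 (SE) and an adjusted p of 0.00378. Galc, which removes galactose from galactosylceramide, had 19 and 21.2 TPM under ND and 58.4 and 57.8 TPM under HFD, a log2 fold change of 1.49 ± 0.08 (adjusted p = 0.00571). Psap, the precursor of the saposins that help hydrolases reach their sphingolipid substrates and the gene of the class with the highest mean over the 4 samples, though below Npc2 in ND-2, had 475.5 and 452.7 TPM under ND and 840.5 and 919.7 TPM under HFD, a log2 fold change of 0.92 ± 0.06 (adjusted p = 0.00825).

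Other genes of the class differed less or the other way. Smpd1, the acid sphingomyelinase, had 57.1 and 57.5 TPM under ND and 58.3 and 58.6 TPM under HFD, a log2 fold change of 0.03 with a 95% confidence interval from -0.10 to 0.16, the smallest difference of all 40 members. Its sign turned to -0.003 with median-ratio scaling, to -0.11 with quantile normalization and to -0.03 after leaving out the 50 most abundant genes. Gm2a, the activator that presents GM2 ganglioside to beta-hexosaminidase, had 414.6 and 410.3 TPM under ND and 315.5 and 317.7 TPM under HFD, a log2 fold change of -0.38 (adjusted p = 0.0108) that missed the fold limit. Its ratio to Hexa was 1.198 and 1.189 under ND and 0.714 and 0.725 under HFD, whereas the ratio of Galc to Smpd1 was 0.333 and 0.369 under ND and 1.002 and 0.986 under HFD. Asah1, the acid ceramidase, and Npc2, a soluble cholesterol carrier, each had a log2 fold change of 0.34, with adjusted p-values of 0.0433 and 0.0161. Ppt1, which removes fatty acyl groups from proteins, had overlapping groups, 108.5 and 115.6 TPM under ND and 113.3 and 128.9 TPM under HFD (adjusted p = 0.429).

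Among the sulfatases and the phosphatase, Acp2 was the only gene called of 5, and the median log2 fold change was -0.17. Acp2, the lysosomal acid phosphatase, had 40.5 and 43.1 TPM under ND and 68.7 and 64.6 TPM under HFD, a log2 fold change of 0.66 ± 0.06 (SE, adjusted p = 0.0130). Without HFD-1 its call was lost (adjusted p = 0.0507). Of the 4 sulfatases, which remove sulfate groups from glycosaminoglycans or sulfatide, none was called. Both HFD values lay below both ND values in 3 of these 4, beside 32.8% of all tested genes. Arsb, the most abundant of them and the one with the smallest difference, had 109.7 and 117.3 TPM under ND and 95.9 and 105.9 TPM under HFD, a log2 fold change of -0.17 (adjusted p = 0.197). Sgsh, which acts on heparan sulfate, had a log2 fold change of -0.24 with an adjusted p of 0.0461, Ids one of -0.19 with 0.200, and Arsa one of 0.27 with 0.132.

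Of the 6 membrane proteins, 2 were called higher, beside 8.08% of all tested genes. All 6 had both HFD values above both ND values, beside 34.1% of all tested genes. The median log2 fold change was 0.42. Cd63, a tetraspanin of late endosomes, lysosomes and exosomes, had 200.7 and 196.2 TPM under ND and 516.0 and 553.8 TPM under HFD, a log2 fold change of 1.43 ± 0.05 (SE, adjusted p = 0.00449). Npc1, which moves cholesterol out of the lysosome after Npc2 hands it over, had 43.1 and 47.8 TPM under ND and 85.1 and 89.2 TPM under HFD, a log2 fold change of 0.93 ± 0.07 (adjusted p = 0.00978, and 0.0502 without HFD-1). The ratio of Npc1 to Npc2 was 0.0935 and 0.101 under ND and 0.146 and 0.149 under HFD, and the ratio of Lipa to Npc1 was 4.08 and 3.88 against 8.85 and 8.54.

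The other 4 membrane proteins of this class changed less, and none of them was called. Lamp1, a heavily glycosylated protein that lines the lysosome and the most abundant gene of this class, had 698.6 and 709.2 TPM under ND and 932.5 and 946.0 TPM under HFD, a log2 fold change of 0.42 ± 0.03 that had an adjusted p of 0.00924 and lay under the fold limit. Lamp2, its close relative, had a log2 fold change of 0.35 (adjusted p = 0.0404). Scarb2, the receptor that brings beta-glucocerebrosidase to the lysosome, had one of 0.43 (adjusted p = 0.0624). Cln3, mutated in juvenile Batten disease, had the smallest difference of the class, with 13.3 and 13 TPM under ND, 16.4 and 16.1 TPM under HFD, a log2 fold change of 0.29 and an adjusted p of 0.0530. With a limit of 2-fold in place of 1.5-fold, 7 members were called higher, Ctsl, Lipa, Gusb, Ctsd, Galc, Cd63 and Ctsz, and Ctsc was called lower, beside 4.18% and 5.32% of all tested genes.

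**Figure D3:**
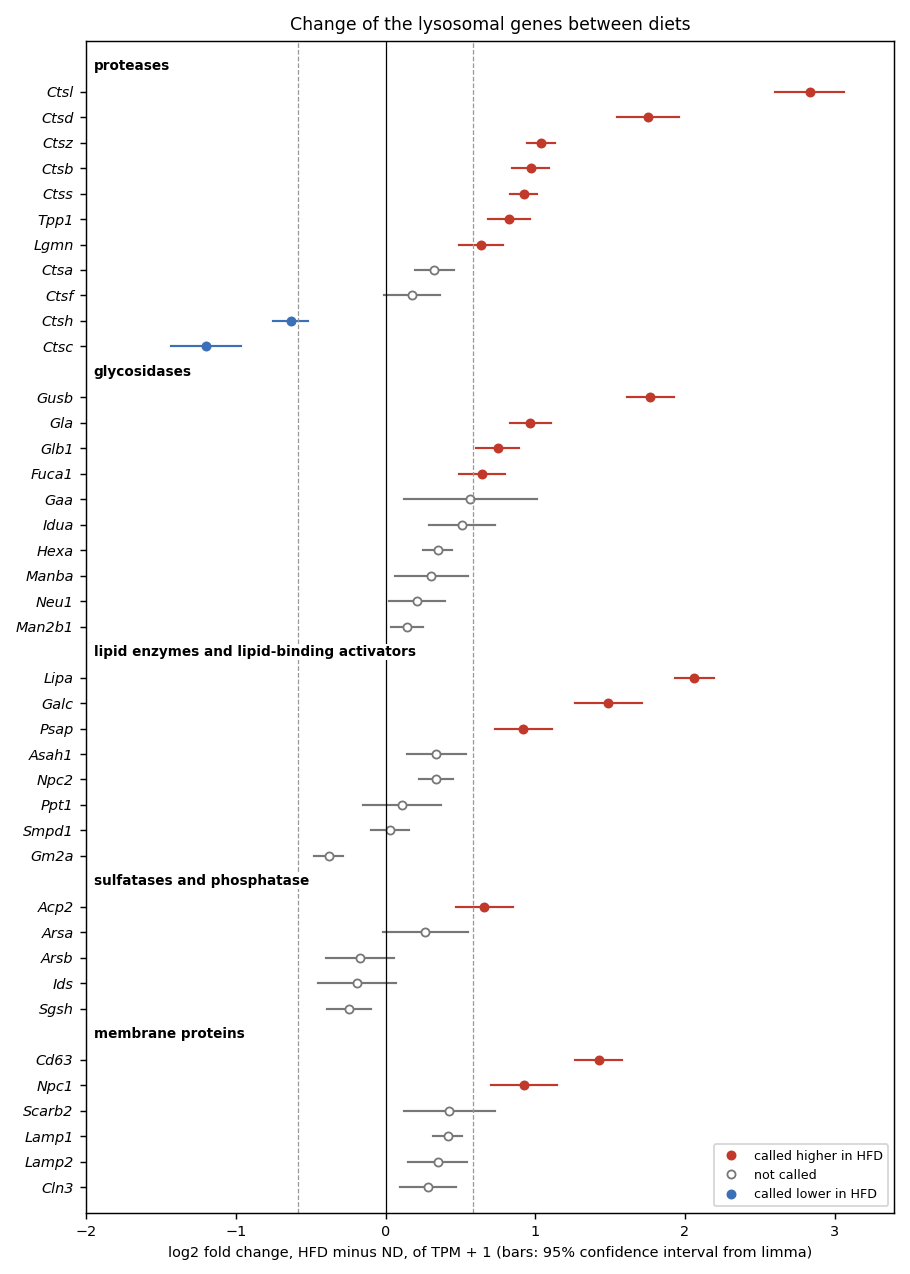
Log2 fold change (HFD minus ND, of TPM + 1) of each of the 40 genes by class, with 95% confidence intervals from limma as bars, dashed lines at 1.5-fold and filled points for called genes. Ctsl at 2.84 and Lipa at 2.06 lie farthest to the right, Ctsc at -1.20 farthest to the left, and the 4 sulfatases and Smpd1 lie near 0.

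The members agreed closely between samples of the same diet. The median difference between HFD-1 and HFD-2, without regard to sign, was 0.06 on the log2(TPM + 1) scale and the largest was 0.37, in Gaa. Between the ND samples the median was 0.05 and the largest 0.15. Over all tested genes these medians were 0.16 between the HFD samples and 0.09 between the ND samples. For the 10 general macrophage markers they were 0.064 and 0.061. In the same HFD samples the 6 fibroblast markers were higher in HFD-2 by 0.91 to 1.12 and the 5 spermatid transcripts were lower in HFD-2 by 1.59 to 2.03. Resident macrophage markers were lower in HFD-2 by 0.12 to 0.89. Lipid-associated macrophage markers were higher there by 0.00 to 0.59, with a median of 0.08 and the largest difference in Spp1. With the sign kept, the median was 0.035 for the members and 0.036 for the 10 general macrophage markers. The direction was kept in all 160 pairs of member and fit with 1 sample left out. In every member but Ppt1 the groups did not overlap, so leaving out 1 sample could not turn the direction there. The part of lipid-associated macrophages, fibroblasts or other cells in the difference between diets was not tested.

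**Figure D4:**
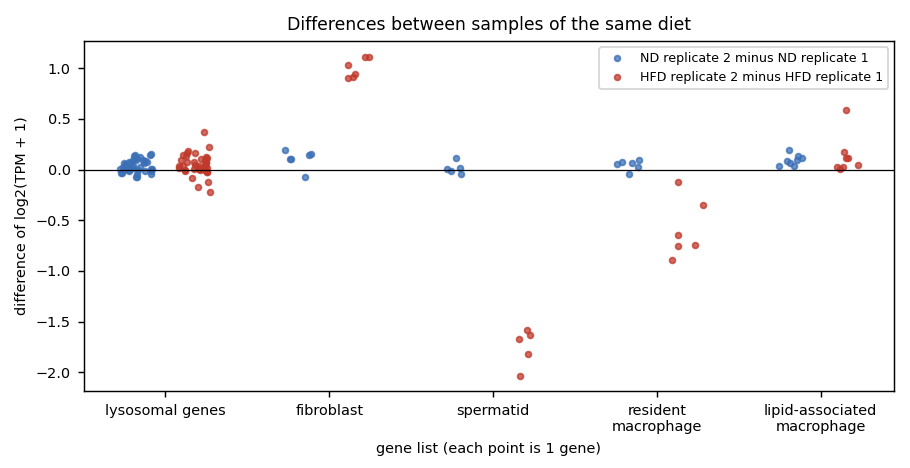
Difference between the samples of 1 diet in log2(TPM + 1), 1 point per gene, for the 40 lysosomal genes and 4 marker lists, with horizontal jitter. The lysosomal genes lie within 0.37 of 0 in both diets, whereas fibroblast genes differ by 0.91 to 1.12 and spermatid genes by -1.59 to -2.03 between the HFD samples.

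Of 60 further genes of the lysosome, listed by function, 55 were tested. Under HFD 23 were called higher and 7 lower, beside 8.08% and 10.3% of all tested genes. Those shares also stand beside the counts of each smaller list below. The median log2 fold change of the 55 was 0.41, that of all tested genes 0.06. Without ND-1 or without ND-2 limma called none of these genes. Of 28 genes listed as other hydrolases, though not every one of them is a hydrolase, 14 were higher and 5 lower. Ctsk, the cathepsin with which osteoclasts degrade collagen, had 6.9 and 7.6 TPM under ND and 442.5 and 474.3 TPM under HFD, a log2 fold change of 5.80 ± 0.07 (SE, adjusted p = 0.00378). Acp5, the tartrate-resistant acid phosphatase, had 7.6 TPM in both ND samples and 61.6 and 57.2 TPM under HFD (log2 fold change 2.81). Hyal1, a hyaluronidase, had 7.4 and 7.5 TPM under ND and 35.5 and 35.2 under HFD (2.10), and Galns, a sulfatase for keratan and chondroitin sulfate, had 4.6 and 4.4 TPM under ND and 20.7 and 21.9 under HFD (2.02). Unlike the 4 sulfatases above, Galns was thus called higher. Ctsw, a cathepsin of NK and cytotoxic T cells, had 12.7 and 14.5 TPM under ND and 3.0 TPM in both HFD samples (-1.87). The other 4 hydrolases called lower were Plbd1, Naaa, Rnaset2a and Rnaset2b, named after their values were seen, and the last 2 are near-identical copies whose reads may be divided between them.

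Genes listed for the targeting and maturation of lysosomal enzymes were tested as a second set, and 3 of 11 were called higher and none lower. Igf2r, the large receptor for mannose 6-phosphate, had 26.3 and 29.4 TPM under ND and 249.2 and 255.0 TPM under HFD, a log2 fold change of 3.14 ± 0.07 (SE, adjusted p = 0.00378). Sort1, a sorting receptor that also carries hydrolases, had 5.9 and 6.6 TPM under ND and 21.8 and 19.6 under HFD (1.58). The third was Gnptab, a subunit of the enzyme that makes the mannose 6-phosphate mark, named after its values were seen, with a log2 fold change of 1.40. The smaller mannose 6-phosphate receptor M6pr, also named afterwards, was more abundant than Igf2r in every sample and had a log2 fold change of 0.52, under the fold limit. Of 11 other membrane proteins tested, 3 were called higher, Cd68, Slc17a5 and Tmem192, and Sidt2 was called lower, all named after their values were seen.

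The cystatins and serpins listed as protease inhibitors did not move as 1 group. Of 9 listed, 5 were tested, and 3 were called higher and 1 lower. Among the tested cystatins Cstb alone was called higher, and the other genes called higher were the serpins Serpinb6a and Serpinb6b. Whether these serpins act on cysteine cathepsins was not tested. Cstb, the inhibitor found in the cytosol, had 385.7 and 387.4 TPM under ND and 990.5 and 1043.4 TPM under HFD, a log2 fold change of 1.39 ± 0.04 (SE, adjusted p = 0.00415). Serpinb6a had 70.4 and 73.4 TPM under ND and 123.5 and 128.4 under HFD (0.80), and Serpinb6b had 14.8 and 15.1 TPM under ND and 38.2 and 47.8 under HFD (1.46). Cst7, cystatin F, an inhibitor of Ctsc in cytotoxic and myeloid cells, was lower, with 20.5 and 20.0 TPM under ND and 3.0 and 6.1 TPM under HFD (-1.995 ± 0.33, adjusted p = 0.0311). Cst3, cystatin C, the most abundant inhibitor in every sample and named after its values were seen, was not called, with 3831.4 and 3709.0 TPM under ND and 2619.0 and 2942.3 TPM under HFD (-0.44, adjusted p = 0.0314, under the fold limit). The 9 listed inhibitors summed to 4323 and 4205 TPM under ND and 3774 and 4169 TPM under HFD. Cst7 and Ctsc were thus both lower. Markers of NK and T cells were lower too, as were those of B cells and resident macrophages. The part of any of these cells was not tested.

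**Figure D5:**
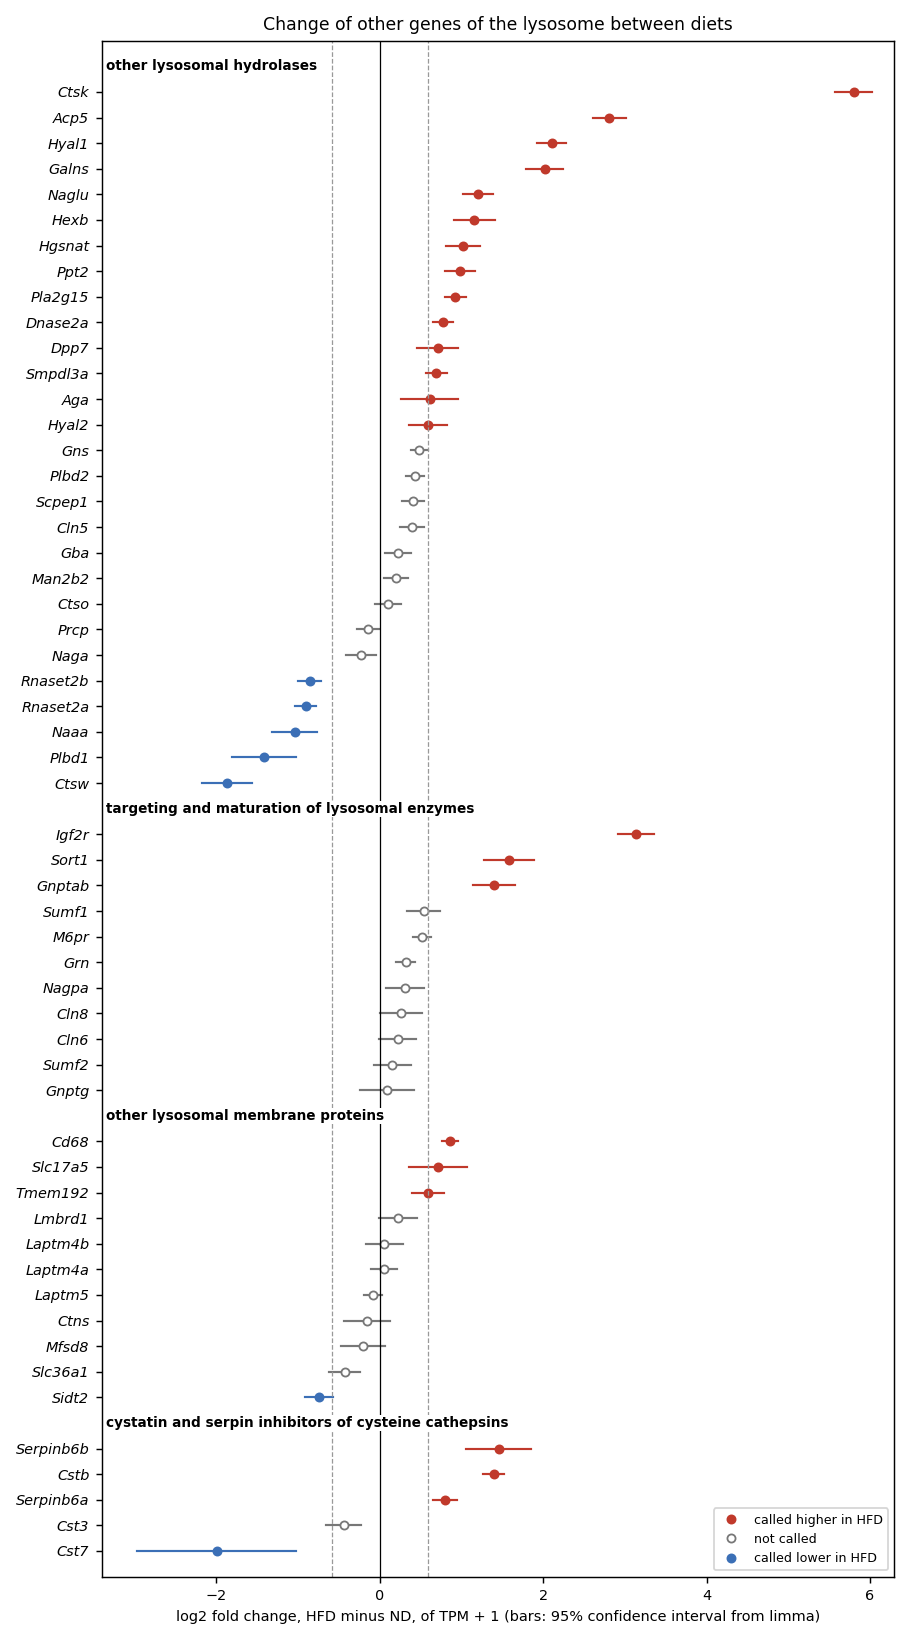
Log2 fold change (HFD minus ND, of TPM + 1) of the 55 other lysosomal genes tested, by function, with 95% confidence intervals from limma as bars, dashed lines at 1.5-fold and filled points for called genes. Ctsk at 5.80 and Igf2r at 3.14 lie farthest to the right, and Cst7 at -1.995 and Ctsw at -1.87 farthest to the left.

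Some members lie on top of other genes. In the GENCODE vM21 annotation, 17 of the 40 members share exon bases with another gene, 15 of them with one on the opposite strand, and the largest shares are 34.4% of the exon bases of Ctsd, with Gm49369 on the same strand, 32.3% of Arsb and 26.8% of Ctsl with antisense genes. Gm49369 and the antisense genes behind these Arsb and Ctsl shares are not among the 35869 listed genes. The libraries were stranded, and whether strand was used in counting is not stated in the sources used here. The values of the overlapping members are thus uncertain by whatever reads the overlaps added or removed.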

How the data were processed

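RNA-seq was run on CD45+ cells of eWAT, 2 samples per diet. The authors trimmed reads with Trim Galore 0.4.2 and cutadapt 1.9.1, aligned them to mm10 with STAR 2.6.1e, dropped duplicates (Sambamba), ran featureCounts 1.6.2 for gene counts and deposited TPM, printed to 1 decimal. The annotation, the use of strand in counting and the mice per sample are not given in the sources used here. TPM hold no depth, so no counting error could be given.

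Genes with at least 1 TPM in at least 2 samples were compared as log2(TPM + 1), a scale that understates the change of low genes, with limma 3.58.1 in R 4.3.3 (eBayes with a variance trend), adjusted by the Benjamini-Hochberg method over all 16849 genes. A count model was not used. The steps were tested on simulated data. Named genes were all called members, the most abundant and the least changed member of each class, up to 8 other lysosomal genes with the largest called changes and called inhibitors. The members and lists were chosen with earlier results of these data known. Alternatives were other pseudocounts, filters, scalings and fold limits, eBayes without a trend, a replicate block and each sample left out. Figures used matplotlib 3.10.9 and Python 3.11.15. No siglec-E KO samples were used here.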

Additional observations from a re-analysis of the deposited data

How the results depend on the processing

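All 19 called members kept their call with a pseudocount of 0.1 or 5, no filter, a mean TPM of at least 5, no variance trend and median-ratio scaling. Quantile normalization took Lgmn, Fuca1 and Acp2 under the fold limit, and leaving out the 50 most abundant genes, Ctsd among them, took Lgmn and Fuca1 under it and put the members' median log2 fold change at 0.35 in place of 0.42. A limit of 2-fold gave 7 members higher and 1 lower, 12 and 4 other lysosomal genes, and 1602 of all genes. All genes called numbered 3097, and 2015 with a pseudocount of 5 and 1778 with no filter. With 1 sample left out, the counts ran from 0 to 17 members higher and 0 to 2 lower, 0 to 22 and 0 to 7 other lysosomal genes, and 0 to 4232 of all genes, and the median ran from 0.38 to 0.48. The counts of 0 came without ND replicate 1 or 2, where a lone ND sample is assumed to vary like the HFD pair. Without HFD replicate 1 the calls of Acp2 and Npc1 were lost and Gaa was called. Smpd1 turned to -0.0033 with median-ratio scaling, -0.11 with quantile normalization and -0.032 without the 50 most abundant genes.

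The replicate numbers pair no samples by any label, and same-numbered samples did not deviate together (r = -0.015 over 16849 genes). With a replicate block 15 of the 19 called members kept their call, 15 other lysosomal genes were called higher and 812 of all genes were called. Lgmn, Glb1, Fuca1 and Acp2 then had adjusted p-values of 0.0504, 0.0529, 0.0505 and 0.0656. The cause of these changes was not tested. TPM without counts do not show how depth limits genes at low levels.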
